A study of Homo sapiens with 2 samples.

Results

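An unplaced contig of hg19, chrUn_gl000220, carries copies of the human ribosomal RNA gene unit and held 34 of the 1905 PABPC1 ChIP-seq peaks called in RWPE cells. RWPE-ERG cells had 25 of them among 1481 peaks (1.69%), and RWPE-empty vector cells had 9 among 424 (2.12%). The peaks were selected on the chromosome name in the authors' peak calls alone, so that their calls and values describe this choice and are not a test of it. RWPE is a line of immortalized epithelial cells from human prostate. RWPE-ERG cells carry the same line with the ETS transcription factor ERG expressed from a vector, and the control cells carry that vector without an insert. Chromatin of both was precipitated with an antibody to PABPC1, the poly-adenylate-binding protein, and pooled ChIP experiments were sequenced as 1 library per condition beside an input library of the same cells. No replicate stands behind any value, and no test compares the conditions.

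The libraries differed in depth and in fragment length. In RWPE-empty vector cells 38648756 ChIP tags and 15751557 tags of input were used, and reads of 81 bp were extended to fragments of 85 bp. In RWPE-ERG cells 2366623 ChIP tags and 9746026 tags of input were used, and reads of 83 bp were extended to fragments of 299 bp. Tags, folds and peak widths are therefore described within each list, and their part in the differences between the lists was not tested.

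Ribosomal DNA is organised as tandem units on the short arms of the acrocentric chromosomes. RNA polymerase I transcribes each unit into a 45S precursor (RNA45S5), from which the external and internal transcribed spacers (ETS and ITS) are removed to leave the 18S, 5.8S and 28S RNAs. Between the genes lies a long intergenic spacer, which is known for its repeats and simple sequence. PABPC1 binds the poly(A) tails of messenger RNA and is known mainly from the cytoplasm. The contig was sorted into these elements from the RefSeq positions of the genes. A 5.8S transcript model matched it at chrUn_gl000220:112025-112173 and chrUn_gl000220:155997-156145 at 94.6% identity, and the 18S primer pair of the study matched at chrUn_gl000220:110035-110230 and chrUn_gl000220:154007-154202. Both matches fell inside the placed gene in both copies, with the genes on the + strand.

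The contig spans 161802 bp. Its first 102 kb, called the left part here, matched no ribosomal unit, and the last 60.3 kb held the units. A 45S gene of 13357 bp (copy 1) was followed by a spacer of 30615 bp and by a second 45S gene (copy 2) that the contig end cuts off in the 28S gene after 12407 bp. A further 3875 bp of spacer preceded copy 1. The sequence around copy 1, with its upstream spacer, recurred around copy 2 over 16288 bp at 99.92% identity. Reads from this duplicated stretch cannot be assigned to 1 copy, and no read can be assigned to 1 of the many units of the genome. Between the duplicated stretches lay 27.7 kb, the middle stretch, where 5.09% of windows of the 81 bp read length and 4.88% of those of 83 bp had an identical match elsewhere on the contig, against 98.4% and 98.3% in the duplicated stretch of copy 1.

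All 34 peaks lay in the unit part and 0 lay in the left part. Every RWPE-empty vector peak lay in the spacer. Of the RWPE-ERG peaks, 11 lay mostly in the spacer and 14 in the transcribed region. The summits of all 9 RWPE-empty vector peaks and of 8 of the 25 RWPE-ERG peaks (32.0%) fell in tracts where the strand that reads as the ribosomal RNA is at least 80% C and T. Over each whole list, 7.08% of the RWPE-empty vector peaks and 4.32% of the RWPE-ERG peaks had a summit window of 200 bp with at least 80% of either C and T or A and G. Outside the contig these shares were 5.06% and 3.85%.

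The sequences that carry the main pattern are those under the summits in the tracts. They are shown as 121 bases of hg19 centred on the summit, 5′ to 3′, with runs of CTCTCT or its complement in capitals.
Summit of both lists upstream of copy 1 (chrUn_gl000220:102888-103008, + strand): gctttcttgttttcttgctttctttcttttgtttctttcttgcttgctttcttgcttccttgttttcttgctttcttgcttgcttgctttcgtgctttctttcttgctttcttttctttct
RWPE-ERG summit in the first tract of the spacer (chrUn_gl000220:119469-119589, + strand): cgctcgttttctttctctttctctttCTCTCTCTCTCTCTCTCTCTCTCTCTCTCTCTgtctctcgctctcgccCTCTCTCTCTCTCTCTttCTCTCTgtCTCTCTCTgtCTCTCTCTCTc
RWPE-empty vector summit in the 2706 bp tract (chrUn_gl000220:128712-128832, + strand): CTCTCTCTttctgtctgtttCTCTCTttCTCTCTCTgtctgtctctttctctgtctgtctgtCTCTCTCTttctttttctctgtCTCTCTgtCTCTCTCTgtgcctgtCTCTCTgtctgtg
RWPE-ERG summit in the 2706 bp tract (chrUn_gl000220:128549-128669, + strand): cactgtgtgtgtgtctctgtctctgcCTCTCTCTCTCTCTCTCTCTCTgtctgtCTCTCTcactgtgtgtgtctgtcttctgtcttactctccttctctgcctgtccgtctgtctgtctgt
RWPE-empty vector summit in the 2627 bp tract (chrUn_gl000220:132952-133072, + strand): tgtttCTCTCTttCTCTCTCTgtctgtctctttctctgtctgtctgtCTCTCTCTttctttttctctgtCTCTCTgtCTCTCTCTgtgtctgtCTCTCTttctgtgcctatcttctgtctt
RWPE-ERG summit in the 2627 bp tract (chrUn_gl000220:133168-133288, + strand): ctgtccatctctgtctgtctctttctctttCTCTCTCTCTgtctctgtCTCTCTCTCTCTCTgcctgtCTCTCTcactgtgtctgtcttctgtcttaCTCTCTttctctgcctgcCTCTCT

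Each of these windows is made mostly of C and T, and they differ in how it is arranged. The summit that both lists share held 0 bases in such runs at a C+T share of 87.6%, with CTTT and CTTG steps instead. The first tract of the spacer held 72 of 121 bases in runs. The 4 summit windows of the long tracts held 28 to 50.

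**Figure D1:**
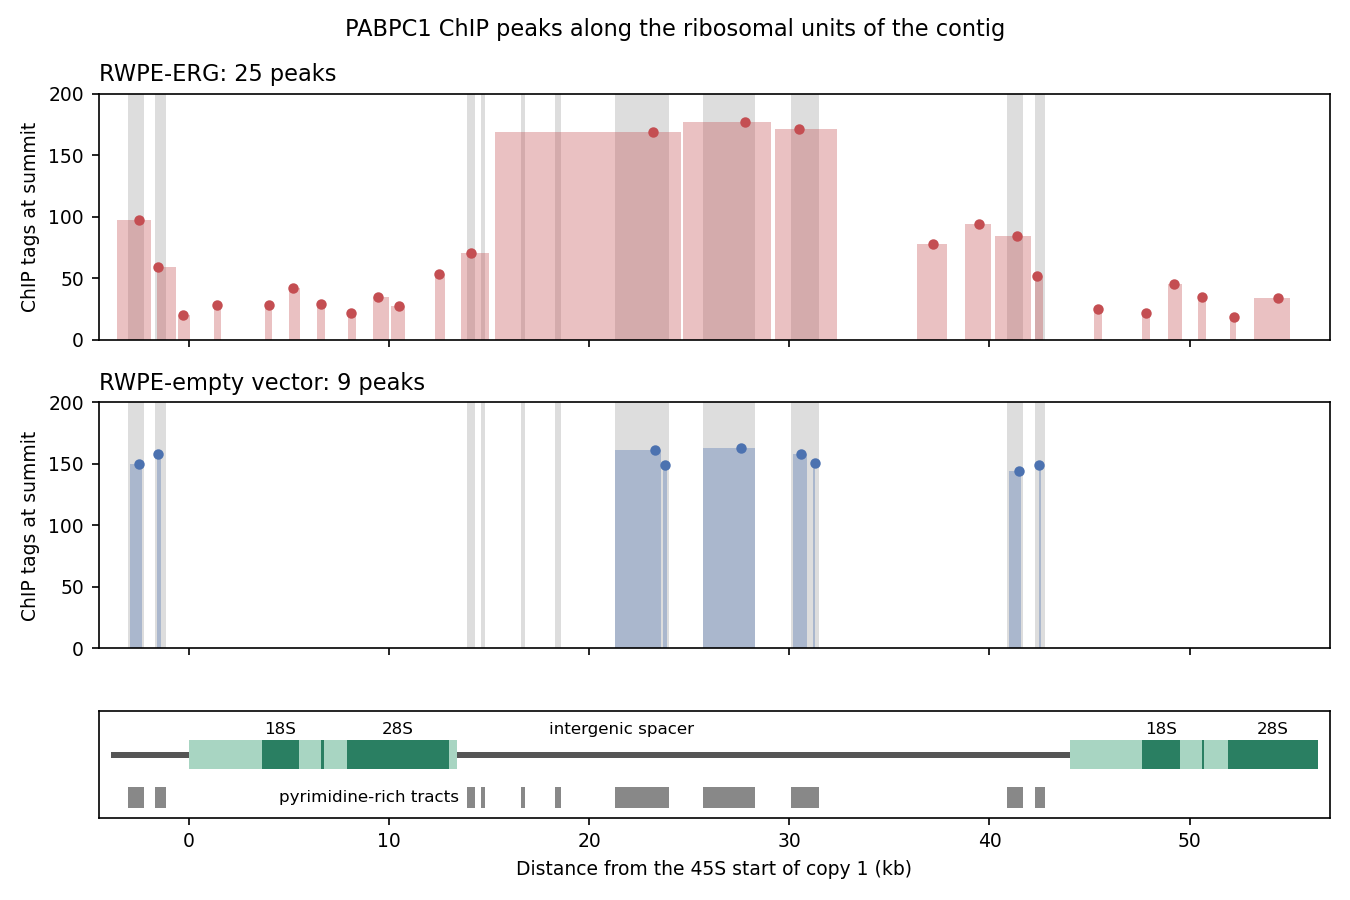
Peaks along the unit part, drawn by distance from the 45S start of copy 1 in kb, with the height of each box and point giving the ChIP tags at the summit and grey bands giving the pyrimidine-rich tracts. Light and dark green in the lower strip are transcribed spacers and mature RNA genes; the 9 RWPE-empty vector peaks sit on the grey bands, and the 25 RWPE-ERG peaks also cover the spacer around them and the genes.

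Tracts of at least 200 bp numbered 11 in the unit part and took up 10405 bp, 17.3% of it. They were all in the spacer. The peaks of RWPE-empty vector cells covered 70.5% of the tract bases, and 99.7% of the bases in those peaks were tract. The peaks of RWPE-ERG cells covered 98.0% of the tract bases, and 29.5% of their own bases were tract. Of the 11 tracts, 7 had a RWPE-empty vector peak and 11 had a RWPE-ERG peak. The other 4 were the shortest ones, of 215 to 389 bp, which lay from 13.9 to 18.6 kb. No RWPE-empty vector peak reached them. The left part of the contig held 2 more tracts, of 520 bp (91.3% C and T) and 328 bp (83.2%), and no peak of either list covered them.

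In RWPE-empty vector cells the widest peaks lay in the 3 long tracts of the spacer between the genes. Distances are from the 45S start of copy 1, and tags are ChIP reads over the summit. The peak from 126703 to 129011 lay in the 2706 bp tract at 21.3 to 24.0 kb, with 161 tags and a fold enrichment over local input of 2.66. A second peak of this tract, from 129121 to 129305, had 149 tags and a fold of 2.48. Together they covered 92.2% of the tract. The peak from 131121 to 133688 covered 96.9% of the 2627 bp tract at 25.7 to 28.3 kb, with 163 tags and a fold of 1.64. In the 1336 bp tract at 30.1 to 31.5 kb, the peak from 135598 to 136282 had 158 tags (fold 2.08) and the peak from 136607 to 136767 had 151 (fold 1.95), and together they covered 63.3% of it. These 5 peaks lie in the middle stretch, which is not free of repeats. The summit windows shown for the first 2 long tracts share an identical run of 88 bases, longer than a read, and 37.0% and 34.6% of the read-length windows over these 2 summits had a match elsewhere on the contig. For the other 3 summits it was 0.

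The other 4 RWPE-empty vector peaks lay upstream of the genes, where the contig is duplicated. The peak from 102494 to 103098 upstream of copy 1 had 150 tags (fold 2.49), and the same place upstream of copy 2, from 146468 to 147008, had 144 (fold 2.06). Closer to the genes, the peak from 103844 to 104030 had 158 tags (fold 1.52) and its counterpart from 147895 to 148011 had 149 (fold 1.62). The first of these had the lowest -log10 p of the 9, at 3.22, where the cut-off of the list was a p of 0.001. A q of at most 0.05 was reached by 4 of the 9 peaks, against 28.8% of the whole list.

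The 9 summits thus held nearly the same number of tags. The lowest was 144, the median 151 and the highest 163. After removal of duplicates, a summit can hold at most 1 tag for each start position and strand, which is 170 tags at a fragment length of 85 bp. The 9 summits reached 84.7% to 95.9% of that number. Outside the contig no summit of the list held more than 139 tags. The local input background, by contrast, ranged from 48.2 to 84.7 times the genome background, and the peak with the highest background had the lowest fold enrichment, 1.52. With at most 170 tags, the folds of the 9 peaks could not have passed 1.63 to 2.82 at their backgrounds. How many duplicate reads had been removed at these summits is not given in the sources used here. All 9 had a background of at least 10 times that of the genome, which held for 11.8% of the list.

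The RWPE-ERG peaks were spread over 57.4% of the unit part, with 76.5% of the spacer and 32.0% of the transcribed region covered. Their summits ranged from 18 to 177 tags with a median of 42. At a fragment length of 299 bp a summit could hold 598 tags, and the highest reached 29.6% of that. All 25 had a local background of at least 10 times the genome background, which held for 4.39% of the list. A q of at most 0.05 was reached by 24 of the 25, against 36.9% of the list. The 5 longest peaks of the whole list were among them.

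The spacer between the genes carried the highest RWPE-ERG summits. From 13.6 to 32.4 kb, 4 peaks stood side by side and covered 96.4% of 18.8 kb. The peak from 119006 to 120419 began at 13.6 kb, past the 3′ end of the 45S gene at 13.4 kb, with its summit in the tract at 13.9 to 14.3 kb (70 tags, fold 6.09). The peak from 120762 to 130007, the longest of the list at 9246 bp, had 169 tags (fold 9.43). The peak from 130128 to 134509 had 177 tags (fold 8.93), and that from 134723 to 137810 had 171 (fold 7.52). The last 3 held more tags than any peak outside the contig, where the highest summit had 126. Each of the 4 summits lay in a tract, although tract made up only 34.5% to 59.9% of the bases of these peaks.

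The longest stretch without a RWPE-ERG peak in the unit part lay from 32.4 to 36.4 kb. Beyond it, 2 peaks of the spacer held no tract at all. The peak from 141796 to 143324 had 78 tags (fold 3.14) and that from 144214 to 145574 had 94 (fold 2.77). Their summit windows were 51.5% and 44.5% C and T. Their local backgrounds of 92.1 and 127 times the genome background were above those of the 3 peaks with the most tags, at 65.0, 72.3 and 83.5. High tags with a low fold here went with a high input.

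Upstream of the genes the RWPE-ERG peaks lay on the same tracts as the RWPE-empty vector peaks. The peak from 101835 to 103544 had 97 tags (fold 5.45) and its summit at 102948 was at the same base as the RWPE-empty vector summit. Its counterpart upstream of copy 2, from 145766 to 147550, had 84 tags (fold 4.72). There the summits of the lists were at different bases, 146842 for RWPE-ERG and 146948 for RWPE-empty vector. The nearer tract had 59 tags upstream of copy 1, in the peak from 103810 to 104778 (fold 2.11), and 52 upstream of copy 2, from 147740 to 148099 (fold 2.27).

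The start of the 45S gene is where RNA polymerase I and its factors assemble. The RWPE-ERG peak from 104898 to 105478 covered it, from -526 to 54 bp, with 20 tags (fold 3.28, -log10 p 6.54) and a summit window of 52.5% C and T. The same place at copy 2 had no peak, and it was the only one of the 18 RWPE-ERG peaks in the duplicated stretch without a peak at its counterpart. The nearest RWPE-empty vector peak ended 867 bp away. The sequence around the start is given with the transcribed bases in capitals.
Start of the 45S gene, copy 1 (chrUn_gl000220:105304-105483, + strand): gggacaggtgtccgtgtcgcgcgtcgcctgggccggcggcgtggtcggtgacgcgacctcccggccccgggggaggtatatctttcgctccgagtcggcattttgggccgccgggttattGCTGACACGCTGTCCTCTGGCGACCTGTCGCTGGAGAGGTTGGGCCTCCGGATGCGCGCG

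The 14 peaks of the transcribed region all belonged to the RWPE-ERG list, with 8 in copy 1 and 6 in copy 2. They held 18 to 53 tags with a median of 28.5, against a median of 84.0 for the 11 peaks of the spacer. Peaks covered 49.8% of the 18S gene, all of the 5.8S gene and 46.7% of the 28S gene. The transcribed spacers, which are cut out and degraded, were covered for 12.6% (5′ ETS), 26.1% (ITS1), 5.06% (ITS2) and 0% (3′ ETS). The 4 transcribed spacers are 79.2% to 84.0% G and C, and the 3 mature genes are 56.1% to 69.4%. The 5.8S gene of 157 bp is shorter than any RWPE-ERG peak of the transcribed region (322 bp or more), so a single peak can cover it whole. The parts of element length and base composition in the coverage were not tested.

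**Figure D2:**
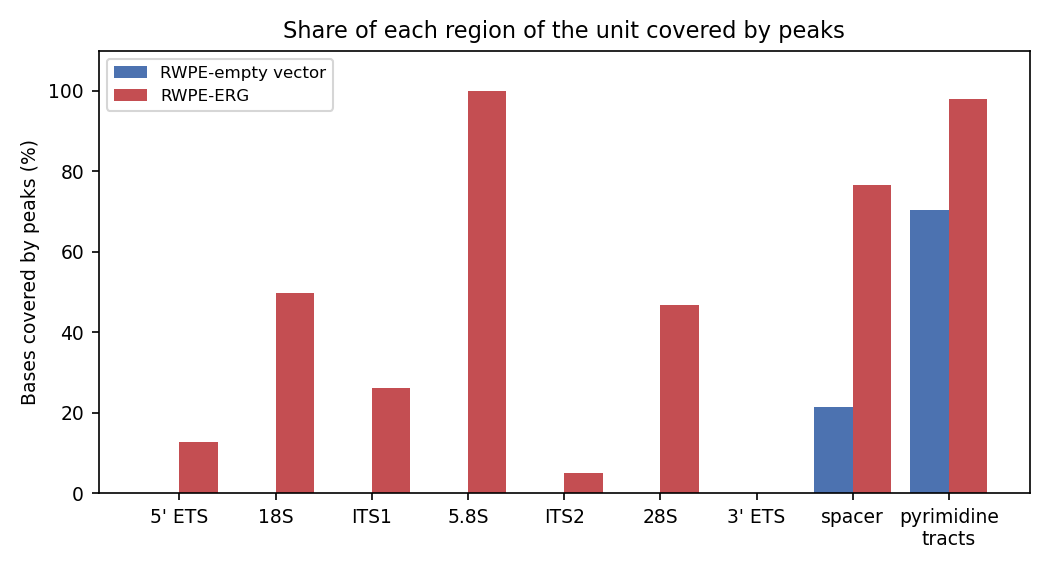
Bases of each element covered by peaks, in percent, over both copies, with blue bars for RWPE-empty vector and red bars for RWPE-ERG. RWPE-empty vector bars are absent for every transcribed element, and the RWPE-ERG bars are higher over the mature RNA genes than over the transcribed spacers. The 100% at 5.8S is for a gene of 157 bp, shorter than any of the peaks there.

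In the 5′ ETS, the peak of copy 1 lay from 106675 to 107041 (28 tags, fold 4.49) and that of copy 2 from 150646 to 151074 (25 tags, fold 4.26). The 18S RNA belongs to the small ribosomal subunit. A first peak lay near its 5′ end, from 109218 to 109570 in copy 1 (28 tags, fold 3.57) and from 152978 to 153449 in copy 2 (22 tags, fold 3.25). A second lay over its 3′ end and the start of ITS1, from 110434 to 110976 (42 tags, fold 3.46) and from 154323 to 155036 (45 tags, fold 5.39). The 18S amplicon that the study used for PCR lay between these and overlapped no peak of either list. It was 204 bp from the nearest RWPE-ERG peak in copy 1 and 121 bp in copy 2, and 6005 and 5996 bp from the nearest RWPE-empty vector peak. The amplicon is shown with the primer sites in capitals.
18S amplicon, copy 1 (chrUn_gl000220:110035-110230, + strand): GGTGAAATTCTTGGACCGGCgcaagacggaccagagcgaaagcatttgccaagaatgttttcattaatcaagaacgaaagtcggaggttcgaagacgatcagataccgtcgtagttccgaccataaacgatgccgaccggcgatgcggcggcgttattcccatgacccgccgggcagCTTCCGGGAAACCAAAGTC

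The 5.8S RNA, which pairs with 28S in the large subunit, was covered whole in both copies. The peak from 111817 to 112227 had 29 tags (fold 3.97) with its summit at 112031, inside the gene, and that from 155788 to 156223 had 35 (fold 5.68). The 149 bp match to the 5.8S transcript model is shown in capitals with 20 bases on each side, and the first and last bases of the 157 bp gene lie outside the capitals.
5.8S, copy 1 (chrUn_gl000220:112005-112193, + strand): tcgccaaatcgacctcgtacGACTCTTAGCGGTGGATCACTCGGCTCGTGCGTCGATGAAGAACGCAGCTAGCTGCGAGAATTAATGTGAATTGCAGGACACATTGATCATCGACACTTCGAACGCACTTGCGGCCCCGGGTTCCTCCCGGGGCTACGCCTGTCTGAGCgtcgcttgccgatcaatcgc

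The 28S gene, the longest of the mature genes, had 4 peaks in copy 1 and 2 in copy 2. Near its 5′ end, the peak from 113376 to 113779 had 22 tags (fold 3.96) and that from 157417 to 157738 had 18 (fold 3.38), the fewest of the 25. Further along copy 1, the peak from 114619 to 115403 had 35 tags (fold 5.09) and that from 115549 to 116198 had 27 (fold 4.49). In copy 2 a single peak, from 158615 to 160411, spanned both places (34 tags, fold 5.52).

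The last 28S peak, from 117704 to 118206, stood apart from the other 13. It had 53 tags but the lowest fold enrichment of the 25 (1.88), the lowest -log10 p (5.21), and the one q above 0.05. Its local background was 106 times the genome background, where the other 13 were at 17.6 to 43.5 times. It is also the only peak of the transcribed region with its summit in the middle stretch, which begins at 12.4 kb, although the peak itself begins in the duplicated stretch. In the spacer, the median background was 77.9 times the genome background for the 6 RWPE-ERG peaks of the middle stretch and 64.9 for the 5 of the duplicated stretch. The median tags were 132 and 59. Of these 6 summits, 1 (from 120762 to 130007) had repeated windows over it, at 42.2%, and the other 5 had 0. Among the duplicated peaks alone, the median was thus 59 tags in the spacer and 28 in the transcribed region (n = 13). The part of the number of copies on the contig in these values was not tested.

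**Figure D3:**
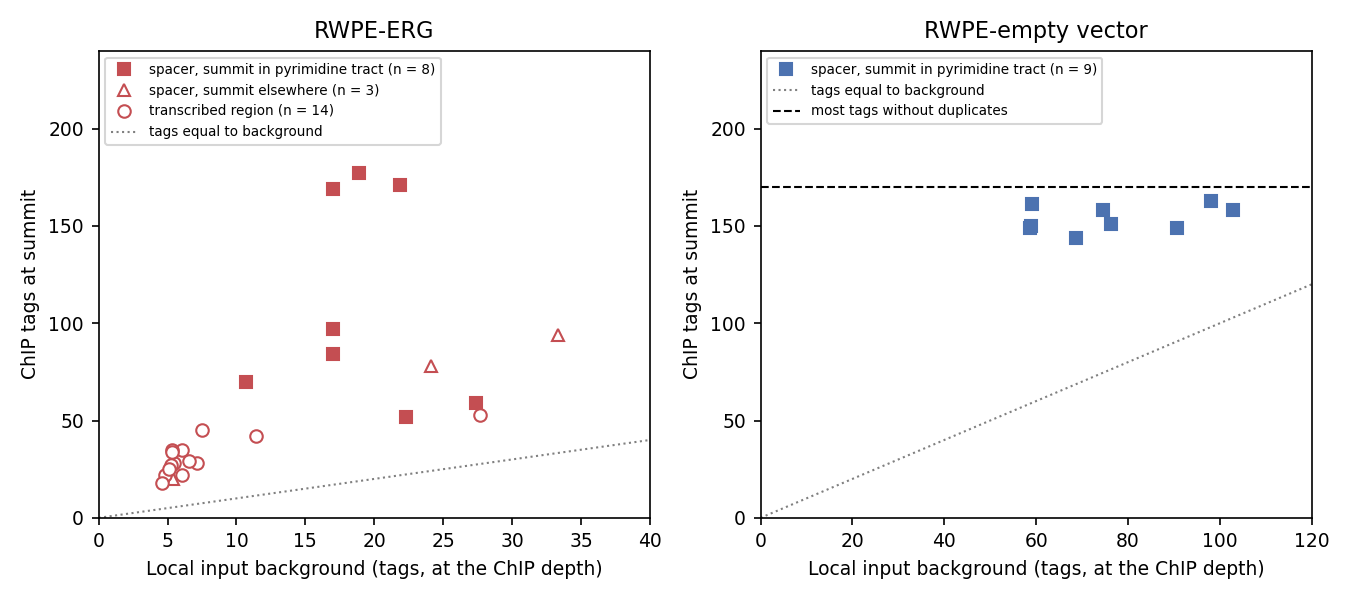
ChIP tags at each summit (y axis) against the local input background in tags at the depth of the ChIP library (x axis), for RWPE-ERG at left and RWPE-empty vector at right, on different x axes. In RWPE-ERG the summits in tracts range from 52 to 177 tags and those of the transcribed region from 18 to 53; in RWPE-empty vector all summits lie between 144 and 163 tags, just under the dashed line at 170.

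Summits in tracts and other summits were set side by side within the RWPE-ERG list. The 8 in tracts had 52 to 177 tags with a median of 90.5, and the 17 others had 18 to 94 with a median of 29.0, so that the ranges overlapped. The background moved with them, with a median of 68.6 times the genome background in tracts and 23.2 elsewhere. The median fold was 5.77 in tracts and 3.96 elsewhere, next to 3.96 for the whole list. Neighbouring peaks of 1 repeat are not replicates, and no test was made of these differences.

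The copies allowed a look at how far the same sequence gave the same value. For the RWPE-ERG list, 9 pairs of peaks lay at the same place of both copies, and the tags of copy 1 were 0.794 to 1.27 times those of copy 2. The last 2 pairs, in 28S, share the single peak of copy 2. For the RWPE-empty vector list there were 2 pairs, at 1.04 and 1.06 times, where summits near the limit of 170 tags leave little room for the ratio to differ from 1. How the aligner placed reads between the near-identical copies is not given in the sources used here, so the tags of either copy alone are uncertain and the pairs are not biological repeats.

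**Figure D4:**
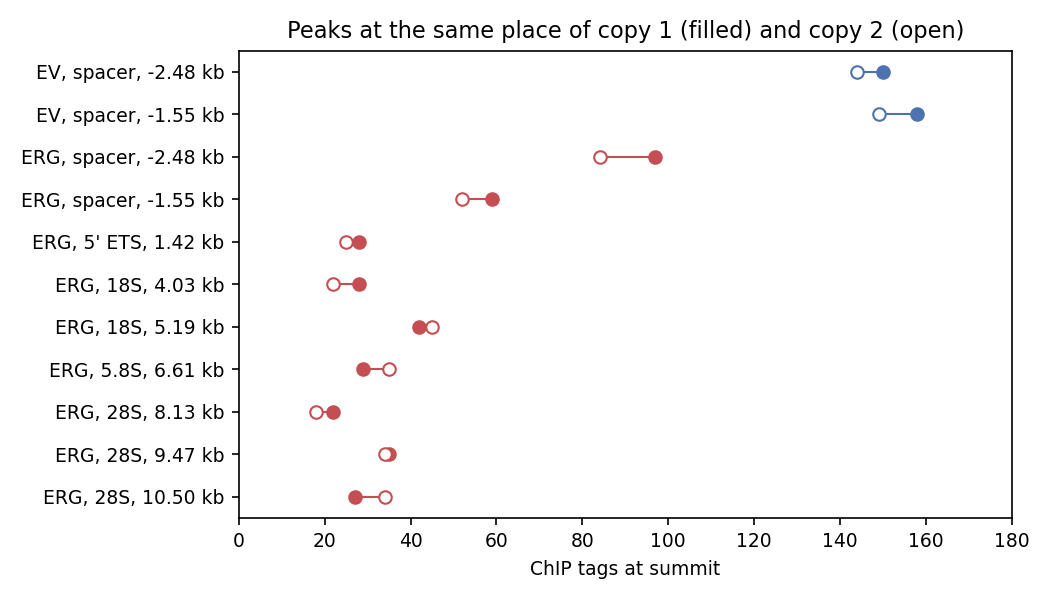
ChIP tags at the summit for peaks at the same place of copy 1 (filled points) and copy 2 (open points), with each pair named by list, element and distance of the copy 1 summit from the 45S start. Blue is RWPE-empty vector (EV) and red is RWPE-ERG; the points of a pair lie close together beside the range over the pairs.

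Between the lists, all 9 RWPE-empty vector peaks overlapped a RWPE-ERG peak, where 4.72% of the whole RWPE-empty vector list did. In the other direction 7 of the 25 RWPE-ERG peaks overlapped a RWPE-empty vector peak, where 1.15% of the whole list did. These 9 and 7 peaks are among the 20 and 17 overlapping peaks of the whole lists, so the shares outside the contig are lower. RWPE-ERG peaks covered 98.0% of the tract bases, and 99.7% of the RWPE-empty vector peak bases were tract. This left little room for a RWPE-empty vector peak without overlap. The shared RWPE-ERG peaks were the 4 on the tracts upstream of the genes and the 3 over the long tracts. Those without a partner were the 14 of the transcribed region, the start of the 45S gene, the first tract of the spacer and the 2 spacer peaks without tract. The overlapping peaks were of very different width, and in 1 pair alone, from 130128 to 134509 and from 131121 to 133688, did the overlap reach 50% of both.

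Short sequences were counted in the peaks and in the rest of the unit part, on both strands. AGAGAG, which counts CTCTCT as its complement, occurred 89.7 times per kb in the RWPE-empty vector peaks and 5.44 times outside them, and 25.7 and 2.42 times for the RWPE-ERG peaks. It was in the 200 bp summit window of 7 of the 9 and 7 of the 25 peaks, and in 26.9% of all such windows of the unit part. The study reports the A run AAAAA as its most enriched motif in RWPE-empty vector sites, and leaves a relation to poly(A) RNA binding unclear. Here AAAAA occurred 3.40 times per kb in the RWPE-empty vector peaks and 4.84 outside, and 4.62 and 4.64 times for RWPE-ERG. In the summit windows the order was different, with AAAAA in 6 of the 9 RWPE-empty vector windows (66.7%) and 3 of the 25 RWPE-ERG windows, next to 27.7% of all windows of the unit part. GGAA, the core that ETS factors such as ERG bind, occurred 4.35 and 9.26 times for RWPE-empty vector and 8.78 and 8.46 times for RWPE-ERG. It was in 5 and 20 of the summit windows of the 9 and 25 peaks, next to 74.6% of all windows. By density per kb, AGAGAG differed most of the 3 between the peaks and the rest of the unit part in both lists. In the RWPE-ERG summit windows its share was close to that of all windows.

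Of the other sequences, ACACAC was common and the rest were rare. CACGTG, an E-box form that factors of the MYC family bind, occurred 12 times in the unit part, and 11 of these were in 6 RWPE-ERG peaks. The RWPE-ERG peaks took up 57.4% of the unit part, with CACGTG at 0.318 per kb in them and 0.0390 outside. CACGTG was in 2 of the 25 summit windows, next to 3.55% of all windows. It was in 0 RWPE-empty vector peaks, with 0.227 per kb outside them. GTCGAC, part of the terminator boxes downstream of the 28S gene, occurred 6 times in the RWPE-ERG peaks (0.173 per kb, and 0.273 outside) and in 0 RWPE-empty vector peaks. ACGGAT, an ETS motif that the study names, occurred 4 times in the RWPE-ERG peaks (0.116 per kb, and 0.156 outside) and in 0 RWPE-empty vector peaks. GAAGATC occurred 1 time (0.0289 per kb, and 0 outside) and GAGNCTGAG 10 times (0.289 per kb, and 0.156 outside) in the RWPE-ERG peaks. Neither was in a RWPE-empty vector peak, with 0.0189 and 0.265 per kb outside those peaks. ACACAC, which counts GTGTGT, occurred 1.77 times per kb in and 2.04 outside the RWPE-empty vector peaks, and 2.31 and 1.60 times for RWPE-ERG. A match of letters is a description and not a bound site.

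Peaks elsewhere in the lists were compared with the contig, to see which of them matched its sequence. Low-complexity sequence was masked in this search, so that matches to the C and T tracts can be missed. Outside the contig, 21 RWPE-empty vector and 56 RWPE-ERG peaks had a summit window of at least 80% C and T or A and G. At 80% identity over 100 bp, 232 of 1456 other RWPE-ERG peaks and 16 of 415 other RWPE-empty vector peaks matched some part of the contig, and 70 and 6 still did when sequence of over 1000 genomic copies was left out. Of these, 21 and 2 matched the unit part. Most of the 21 RWPE-ERG matches began at a few places of the spacer, at -3.30 to -3.16 kb, 33.7 to 33.9 kb and 37.6 to 38.1 kb. Many matches left out for over 1000 genomic copies began at these same places, so a match there need not mean ribosomal sequence. None of the 21 lay in the 3 long tracts. Both RWPE-empty vector peaks matched the spacer tracts. The peak on chromosome 2 from 133029235 to 133029383 lay outside annotated genes, 13.7 kb from ANKRD30BL, and matched the 2706 bp tract over 146 bp at 88.4% identity. It had 89 tags (fold 7.45) at 8.07 times the genome background. It reads as the other strand of the tract, so that A and G take the place of T and C.
RWPE-empty vector peak on chromosome 2 (chr2:133029235-133029383, + strand): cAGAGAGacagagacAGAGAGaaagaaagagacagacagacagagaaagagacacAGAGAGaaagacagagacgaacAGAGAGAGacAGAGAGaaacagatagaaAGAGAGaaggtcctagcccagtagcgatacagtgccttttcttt

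The second such peak, on chromosome 10 from 98561385 to 98561536, had 30 tags (fold 6.61) and matched the 2627 bp tract over 158 bp at 88.0%. It lay outside annotated genes. Among the 21 RWPE-ERG peaks, 1 matched the transcribed region. It lay on chromosome 2 from 133014531 to 133014836, over MIR663B within ANKRD30BL, and matched the 5′ ETS over 316 bp at 84.8% identity, with 6 tags (fold 4.93). These 3 peaks were named after their values were seen.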

How the data were processed

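PABPC1 ChIP-seq peak lists were available for both lines, each from 1 library. The submitters' processing notes name Bowtie2, SAMtools, bedtools, MACS2 2.1.2 and hg19. The deposited lists give positions and lengths (other values), the summit signal or pileup, the -log10 p and q of the authors' caller and a fold enrichment, the ratio of pileup to local input after 1 is added to both. The p cut-off was 0.001. The authors had removed duplicate reads and blacklisted sequence, and each library had its own peak call.

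The RWPE-empty vector pileup was scaled by 0.408 and the RWPE-ERG pileup by 1, so tags were computed as pileup over this factor. Local background followed from pileup and fold, and the p recomputed from it differed by at most 0.00525 in -log10. Genes of copy 1 were placed at their positions in the RefSeq table of GRCh38.p14. This table was used because the 5.8S and 18S matches made on hg19 fell inside its genes. The elements of copy 2 were placed through the alignment of the copies. Copies were aligned with BLAST 2.17.0. Tracts were 100 bp windows of at least 80% C and T, joined across gaps of up to 100 bp to at least 200 bp. This definition was chosen after the data were seen. Overlap meant 1 bp. Peaks elsewhere were matched at 80% identity over 100 bp with low-complexity sequence masked, and copies were counted by 16-base words. The alternatives were other thresholds, overlaps, windows and identities, and the code was tested on simulated data. The members and lists were chosen with earlier results of these data known. Named with full values were the 10 RWPE-ERG peaks of highest pileup, every RWPE-empty vector peak, every shared peak, every peak that overlaps the transcribed region, and the lowest -log10 p of each list. Calculations were done in Python 3.11.15, numpy 2.4.6, pandas 2.3.3, pysam 0.24.0, numba 0.67.0, scipy 1.17.1 and matplotlib 3.10.9. For 1 RWPE-ERG peak outside the contig, on an alternate haplotype, no sequence was used here. A sequence of the contig, outside the unit part, is not reported here.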

Additional observations from a re-analysis of the deposited data

How the results depend on the processing

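Without replicates, no value carries an error between samples. The depth of 2366623 ChIP tags in RWPE-ERG cells and the 170 tags that a RWPE-empty vector summit can hold limit what each list can show, and neither list can tell 1 ribosomal unit of the genome from another. No paired analysis was possible because each group had 1 library and the result comes from no test.

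The RWPE-empty vector peaks numbered 9 as listed, 4 at a q of at most 0.05, 5 with peaks within 1 kb merged and 0 at a fold of at least 3, which none could reach since 170 tags allow at most 2.82, and the same limits left 4 and 0 peaks in the spacer. Merging took the RWPE-ERG peaks from 25 to 9. At an overlap of 50% of both, 1 peak of each list was shared, from 9 and 7. With 200 bp centred on the summit, AGAGAG was in 7 RWPE-ERG peaks, from 13, and CACGTG in 2, from 6. With tracts joined from windows of at least 90% C and T, 5 RWPE-ERG summits lay in tracts, from 8, and 6 RWPE-empty vector summits, from 9. This alternative was added after the data were seen, and a joined tract can be below 90% as a whole. Matches elsewhere in the RWPE-ERG list fell from 232 to 28 at 90% identity and to 70 with sequence of over 1000 genomic copies left out, and in the RWPE-empty vector list from 16 to 7 and 6. Of 36 alternative values, 21 stayed within 1.5 times the reported one.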
